A study of Mus musculus with 8 samples.

Results

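The IFITM genes encode small proteins of the CD225 family that sit in the plasma membrane and in endosomal and lysosomal membranes, where IFITM1, IFITM2 and IFITM3 restrict the fusion of enveloped viruses with the cell. The 4 mouse genes followed here, Ifitm1, Ifitm2, Ifitm3 and Ifitm6, were matched by their Ensembl identifiers among the 54532 genes of the deposited count tables, and all 4 passed the filter on low counts that left 14591 genes for testing. Many Ifitm genes are interferon-stimulated: type I interferon acts on its target genes through interferon-stimulated response elements (ISREs) in their promoters. The cGAS-STING pathway, in which the enzyme cGAS senses cytosolic DNA and the adaptor STING relays the signal, induces type I interferon, and the DNA exonuclease TREX1 degrades the DNA that would otherwise feed it.

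Bone marrow-derived macrophages (BMDMs) were grown for 7 days in L929-conditioned medium from mice of 6 to 8 weeks, all on a C57BL/6J background per the study's methods. WT and germline Trex1-/- cells received DMSO for 12 h, and further Trex1-/- cells received a STING antagonist for 12 h, either H151 at 500 nM or SN-011. H151 modifies a cysteine of STING covalently and blocks its palmitoylation, whereas SN-011 binds the pocket of STING that holds cyclic dinucleotides. No SN-011 dose is given in the labels, and the methods state the same nominal figure for both compounds. No WT cells with an antagonist were analysed here.

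Each of the 4 groups held 2 libraries of polyadenylated RNA, with 11845470 to 17284863 counts per library. The study describes the replicates as independent experiments, but the labels do not say that they came from separate mice, so p-values measure the spread between these libraries. The macrophage markers were present in every library, with all 10 genes tested and a summed level of 31858 to 34213 CPM (read counts relative to library size, scaled between libraries by the trimmed mean of M-values, TMM), most of it Lyz2. In Trex1-/- 3 of them rose, namely Fcgr1 (log2 1.14 ± 0.08), Cd68 (0.44 ± 0.06) and Adgre1 (0.19 ± 0.05), with edgeR adjusted p-values of 2.66e-07, 0.000208 and 0.0249, and 1 fell with each antagonist, Fcgr1 (log2 -0.50 ± 0.08 with H151 and -0.49 ± 0.08 with SN-011). Over all tested genes, 9.27% were called as higher in Trex1-/-, 1.84% as lower with H151 and 2.22% as lower with SN-011. The part of the macrophage markers in the IFITM results was not tested. Trex1 itself had 0 counts in all 8 libraries, so the genotype could not be checked from it. The SN-011 libraries have different treatment wording in the labels, and their sample numbers do not run on from those of the other groups. Any difference in handling or sequencing cannot be told apart from the compound.

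The 4 genes lie within 63.088 kb on chromosome 7 of mm10/GRCm38. Ifitm2 (ENSMUSG00000060591) occupies chr7:140954837-140955987, Ifitm3 (ENSMUSG00000025492) chr7:141009586-141010770 and Ifitm6 (ENSMUSG00000059108) chr7:141015699-141017924, all on the minus strand. Ifitm1 (ENSMUSG00000025491) is on the plus strand at chr7:140967221-140969825. The promoters are shown for their ISREs. Each run below covers 250 bases before to 30 bases after the RefSeq transcription start on GRCm38.p6, at chr7:141010715-141010994 for Ifitm3, chr7:140955932-140956211 for Ifitm2, chr7:140967826-140968105 for Ifitm1 and chr7:141016863-141017142 for Ifitm6, written 5′ to 3′ on the gene's strand. Capitals mark matches to the ISRE core, spelled GAAA, any 2 bases, GAAA, which was searched on both strands.
Ifitm3: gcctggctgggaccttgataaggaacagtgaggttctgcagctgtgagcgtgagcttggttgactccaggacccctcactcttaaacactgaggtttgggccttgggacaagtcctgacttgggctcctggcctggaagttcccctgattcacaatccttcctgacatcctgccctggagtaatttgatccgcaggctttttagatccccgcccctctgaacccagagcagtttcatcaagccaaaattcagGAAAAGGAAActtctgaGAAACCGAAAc
Ifitm2: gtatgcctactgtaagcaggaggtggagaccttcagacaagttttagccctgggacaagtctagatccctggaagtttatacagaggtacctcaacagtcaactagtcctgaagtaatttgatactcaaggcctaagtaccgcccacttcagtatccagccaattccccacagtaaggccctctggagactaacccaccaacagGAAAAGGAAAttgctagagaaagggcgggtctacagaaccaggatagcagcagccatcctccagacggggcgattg
Ifitm1: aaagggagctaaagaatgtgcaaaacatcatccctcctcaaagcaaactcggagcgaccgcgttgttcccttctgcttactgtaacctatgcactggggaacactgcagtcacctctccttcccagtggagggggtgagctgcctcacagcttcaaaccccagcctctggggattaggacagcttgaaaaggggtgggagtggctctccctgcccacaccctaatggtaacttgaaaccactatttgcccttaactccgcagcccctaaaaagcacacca
Ifitm6: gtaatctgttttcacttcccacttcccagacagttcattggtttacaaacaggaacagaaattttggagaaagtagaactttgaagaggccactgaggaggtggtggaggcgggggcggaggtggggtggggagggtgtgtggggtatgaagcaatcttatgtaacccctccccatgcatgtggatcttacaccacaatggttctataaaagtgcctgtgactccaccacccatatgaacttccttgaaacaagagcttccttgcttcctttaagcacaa

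Ifitm3 held 2 ISRE core matches, from base 3 to 12 and from base 20 to 29 counted from the RefSeq start, which lies 26 bases inside the gene as GENCODE annotates it. Ifitm2 held 1 match, from base -46 to -37, with the same letters as the first match of Ifitm3. Ifitm1 and Ifitm6 held 0 matches in this window. Their RefSeq starts lie 855 and 1032 bases inside the genes as GENCODE annotates them, so these windows do not cover the outermost annotated starts. Among all 32851 RefSeq promoter windows of the mouse, which run 20 bases further, 3.44% held the ISRE core. A second motif, the gamma-activated site (TTC, any 3 bases, GAA, also on both strands), was present in 8.30% of the windows, and it occurred once in Ifitm3, from base 14 to 22 and overlapping the second ISRE match, and once in Ifitm6, from base -10 to -2. These matches describe letters only, and no binding was measured.

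In Trex1-/- BMDMs, Ifitm3 and Ifitm6 rose and the other 2 genes did not pass the test. Against WT, Ifitm3 was 1.72-fold and Ifitm6 1.60-fold higher. Ifitm2 was 1.10-fold of WT and Ifitm1 0.854-fold. Across all tested genes, 16.4% were called in this comparison, 9.27% as higher and 7.11% as lower, so 2 of 4 members were called against that background. The median log2 fold change of the members was 0.40, beside -0.00 over all tested genes.

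Ifitm3, the member best known for restricting viruses that enter through endosomes, gave 360 and 384 CPM in the WT libraries and 579 and 703 CPM in the Trex1-/- libraries. Both Trex1-/- libraries lay above both WT libraries. Mean levels were 372 ± 17.4 CPM in WT and 641 ± 87.7 CPM in Trex1-/- (SD, n = 2 each). The log2 fold change of this rise was 0.78 ± 0.13 (SE), and its adjusted p in edgeR's quasi-likelihood test was 0.000907. The call was kept in every alternative fit listed under the processing, with log2 fold changes of 0.64 to 0.92 and adjusted p-values of at most 0.0176.

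Ifitm6, a family member described in myeloid cells, was much less abundant, with 111 and 197 counts in the WT libraries and 235 and 255 counts in the Trex1-/- libraries. These correspond to 8.17 and 13.4 CPM in WT and 17.7 and 16.8 CPM in Trex1-/-. The groups did not overlap, but the WT libraries differed from each other by more than the Trex1-/- libraries did. The log2 fold change was 0.67 ± 0.20 (SE, edgeR adjusted p = 0.0342). It was 1.08 without WT replicate 2 and 0.37 with an adjusted p of 0.296 without WT replicate 1, and the call was also lost without either Trex1-/- replicate, without either SN-011 replicate (adjusted p of 0.0576 to 0.118) and with scaling by total counts only (adjusted p = 0.0564).

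Ifitm2 gave 201 and 216 CPM in WT and 225 and 233 CPM in Trex1-/-. Its Trex1-/- libraries were the higher pair without overlap, yet the log2 fold change was 0.13 ± 0.08 with a 95% interval of -0.03 to 0.30 (edgeR adjusted p = 0.285). It was 0.084 without WT replicate 1 and 0.049 with scaling by total counts only. Ifitm1, whose product is found largely at the cell surface, gave 20.9 and 27.0 CPM in WT and 20.2 and 20.7 CPM in Trex1-/-. Here the Trex1-/- libraries were the lower pair, and the difference of -0.23 ± 0.13 on the log2 scale (95% interval -0.51 to 0.05) did not pass the test (edgeR adjusted p = 0.284). It was -0.030 without WT replicate 2 and -0.40 without WT replicate 1. Without regard to size, 3 members were higher and 1 was lower with no overlap between groups, a pattern that 28.6% (higher) and 27.5% (lower) of all tested genes also showed.

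**Figure D1:**
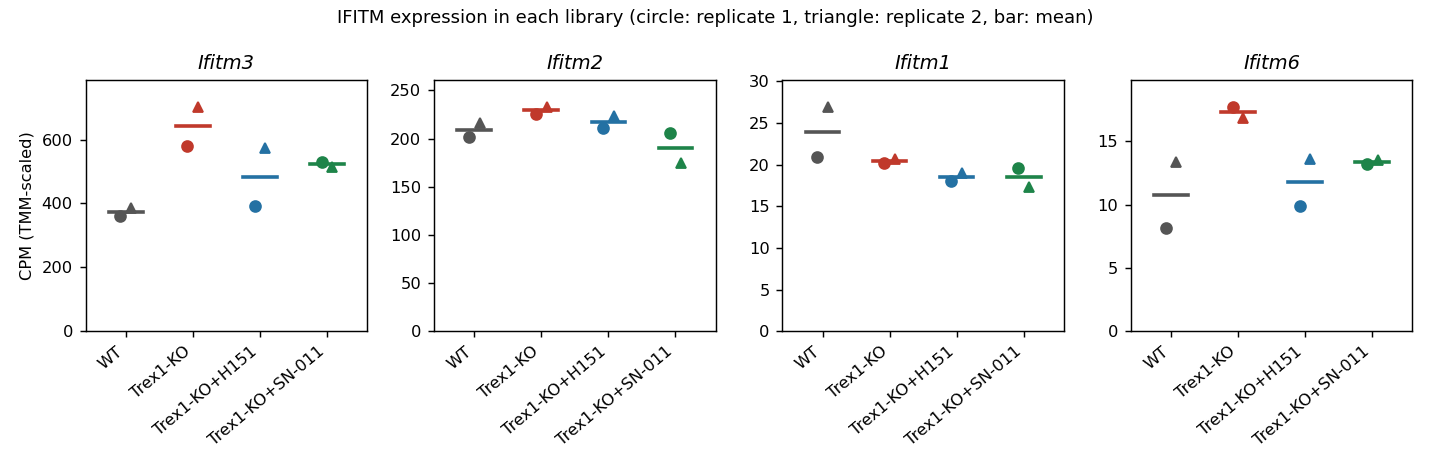
TMM-scaled CPM (vertical axes starting at 0, one scale per gene) of the 4 IFITM genes in the 8 libraries. Trex1-KO on the axes is Trex1-/-, circles are replicate 1, triangles replicate 2 and bars the mean of 2. Ifitm3 is highest in Trex1-/- (579 and 703) and lowest in WT (360 and 384), and its H151 libraries lie far apart (391 and 574).

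With H151, every member had a lower mean than in Trex1-/- cells with DMSO, but none passed the test. The libraries of the 2 groups did not overlap for 4 of 4 members, whereas 17.9% of all tested genes were lower with no overlap. For all tested genes, 2.23% were called in this comparison, 1.84% as lower. By edgeR 0 of 4 members were called, with 2 at an unadjusted p below 0.05 (as were 1365 of all 14591 genes), and DESeq2 and edgeR's exact test also called 0. With a filter at 1 count, Ifitm3 and Ifitm6 were called (edgeR adjusted p = 1.27e-10 and 0.0244, against 0.210 and 0.307 in the main fit). The cause of this gap was not tested. A replicate block, described at the end, also called Ifitm3 as lower.

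Ifitm3 gave 391 and 574 CPM with H151 against 579 and 703 CPM without. One H151 library lay close to the WT level and the other just below the lower Trex1-/- library. The log2 fold change was -0.41 ± 0.13 with a 95% interval of -0.69 to -0.12 (edgeR adjusted p = 0.210). It was -0.71 (adjusted p = 0.000117) without H151 replicate 2, -0.16 (adjusted p = 0.691) without H151 replicate 1 and -0.26 (adjusted p = 0.718) without Trex1-/- replicate 2, so the value depended on which libraries were kept.

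Ifitm6 gave 9.86 and 13.6 CPM with H151, below both untreated Trex1-/- libraries and overlapping the WT libraries. Its log2 fold change was -0.55 ± 0.20 with a 95% interval of -0.97 to -0.12 (edgeR adjusted p = 0.307), and it was -0.34 without H151 replicate 1 and -0.81 without H151 replicate 2. Ifitm2 gave 211 and 224 CPM (-0.08 ± 0.08 on the log2 scale, edgeR adjusted p = 0.900), with -0.036 without H151 replicate 1 and -0.12 without H151 replicate 2. Ifitm1 gave 18.1 and 19.0 CPM (-0.14 ± 0.13 on the log2 scale, edgeR adjusted p = 0.888).

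With SN-011 no member passed the test either. All 4 members lay below the Trex1-/- libraries without overlap, beside 21.6% of all tested genes, and this comparison shares its control libraries with the H151 comparison. Among all tested genes 2.33% were called, 2.22% as lower. By edgeR 0 of 4 members were called, with 2 at an unadjusted p below 0.05 (as were 1756 of all 14591 genes), and DESeq2 and edgeR's exact test also called 0. Ifitm3 was called in a fit of these 2 groups only (edgeR adjusted p = 0.0458). With a filter at 1 count, Ifitm2 and Ifitm3 were called (edgeR adjusted p = 0.00455 and 2.17e-05, against 0.116 and 0.390 in the main fit). The cause of this gap was not tested.

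Ifitm3 gave 531 and 514 CPM with SN-011, a log2 fold change of -0.29 ± 0.13 with a 95% interval of -0.58 to -0.01 (edgeR adjusted p = 0.390). In contrast to the H151 libraries, these 2 libraries were close to each other. The same change passed the test when either H151 library was left out of the joint fit (adjusted p = 0.0316 without replicate 1 and 0.0303 without replicate 2). Without Trex1-/- replicate 2 it was -0.15 (adjusted p = 0.726).

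Ifitm2 gave 206 and 175 CPM with SN-011 and had the lowest adjusted p of the members here, with a log2 fold change of -0.27 ± 0.08 and a 95% interval of -0.43 to -0.10 (edgeR adjusted p = 0.116). Replicate 2 was the lowest of the 8 libraries for this gene, and without it the log2 fold change was -0.15 (adjusted p = 0.583). Ifitm6 gave 13.2 and 13.5 CPM (-0.37 ± 0.20 on the log2 scale, edgeR adjusted p = 0.487). Ifitm1 gave 19.7 and 17.3 CPM (-0.14 ± 0.13 on the log2 scale, edgeR adjusted p = 0.729), with -0.24 without SN-011 replicate 1 and -0.058 without SN-011 replicate 2.

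**Figure D2:**
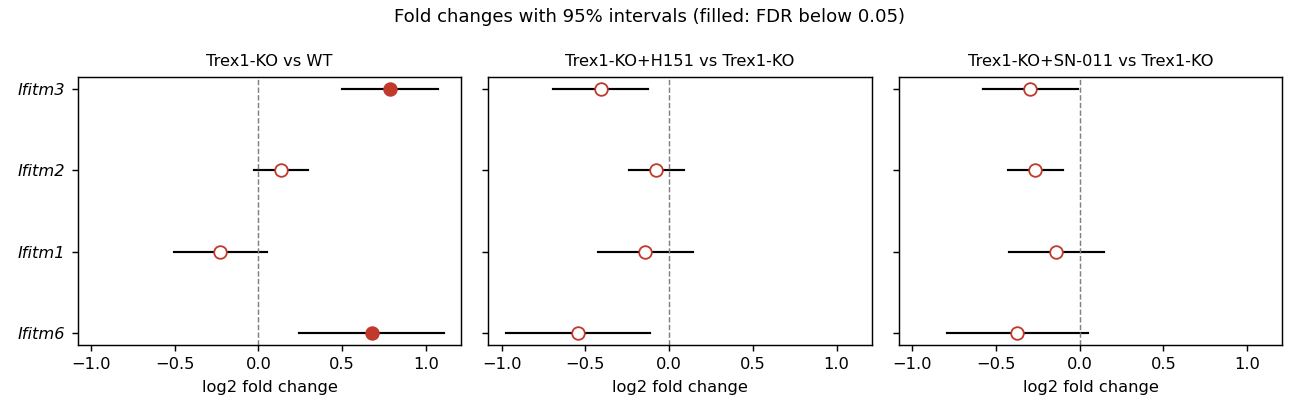
Log2 fold changes (horizontal axes) of the 4 IFITM genes in 3 comparisons, as points with 95% intervals from the edgeR fit, and filled where the adjusted p was below 0.05. Ifitm3 (0.78) and Ifitm6 (0.67) are filled in Trex1-/- against WT, and no point is filled for either antagonist.

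Compared directly, SN-011 and H151 differed in 0 of 4 members by edgeR, DESeq2 and edgeR's exact test, with 1 member at an unadjusted p below 0.05 in edgeR (as were 1300 of all 14591 genes), and 0.158% of all tested genes were called. For Ifitm3 the log2 difference of SN-011 minus H151 was 0.11 with a 95% interval of -0.17 to 0.40, and for Ifitm2 it was -0.19 with an interval of -0.35 to -0.02 (edgeR adjusted p = 0.525). The intervals were -0.27 to 0.61 for Ifitm6 and -0.29 to 0.29 for Ifitm1. Differences of the size of the Ifitm3 change between genotypes lay outside all 4 intervals. The Ifitm3 difference was 0.42 (edgeR adjusted p = 0.0286) without H151 replicate 2 and turned to -0.14 (adjusted p = 0.998) without H151 replicate 1. The Ifitm2 difference was -0.31 without SN-011 replicate 1 and -0.078 without SN-011 replicate 2, and the Ifitm6 difference was -0.034 without H151 replicate 1 and 0.44 without H151 replicate 2.

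Relative to WT, Ifitm3 in SN-011-treated Trex1-/- cells was still higher, at 1.40-fold (log2 0.49 ± 0.13, edgeR adjusted p = 0.0276), and it was the 1 member of 4 called, beside 11.7% of all tested genes (6.18% higher and 5.57% lower). This call was lost with DESeq2 (adjusted p = 0.192) and without either WT or either SN-011 replicate (adjusted p of 0.0917 to 0.194). With H151 Ifitm3 was at 1.30-fold of WT (log2 0.38 ± 0.13, edgeR adjusted p = 0.0898). In that comparison 0 of 4 members were called by edgeR, DESeq2 and edgeR's exact test, with 2 at an unadjusted p below 0.05 in edgeR (as were 3531 of all 14591 genes), while 11.8% of all tested genes were called (6.79% higher and 5.04% lower). Total-count scaling called Ifitm1 as lower, and a filter at 1 count called Ifitm1 as lower and Ifitm3 as higher. A replicate block also called Ifitm3 as higher. The log2 fold change of Ifitm3 was 0.63 (edgeR adjusted p = 0.000133) without H151 replicate 1 and 0.072 (adjusted p = 0.684) without H151 replicate 2.

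Ifitm1 was lowest in the antagonist groups. Its log2 fold change against WT was -0.37 ± 0.13 with H151 (edgeR adjusted p = 0.0912) and -0.37 ± 0.13 with SN-011 (edgeR adjusted p = 0.0926). Without WT replicate 1, which had the lower Ifitm1 level of the WT pair, these were -0.54 (adjusted p = 0.0327) and -0.54 (adjusted p = 0.0335). Without WT replicate 2 they were -0.17 (adjusted p = 0.581) and -0.17 (adjusted p = 0.601).

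Ordered by mean CPM, Ifitm3 and Ifitm6 both ran from Trex1-/- through SN-011 and H151 to WT. For Ifitm3 only the SN-011 and H151 libraries overlapped among neighbours in this order, and for Ifitm6 the 3 lower groups overlapped. Ifitm2 ran from Trex1-/- through H151 and WT to SN-011, with overlap between H151 and WT and between WT and SN-011. Ifitm1 ran from WT through Trex1-/- and H151 to SN-011, with overlap between the last 2.

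Set against one another per kilobase of exon, Ifitm3 was the most abundant member, at 549 ± 25.6 CPM per kb in WT and 945 ± 129 in Trex1-/-. Ifitm2 followed at 319 ± 16.1 and 350 ± 8.36 CPM per kb. Ifitm1 (21.9 ± 3.92 and 18.7 ± 0.31) and Ifitm6 (11.9 ± 4.05 and 19.1 ± 0.72) were far lower. In Trex1-/- the level of Ifitm6 per kb was close to that of Ifitm1. Ifitm3 made up 60.9% ± 0.51 of the summed level of the 4 genes in WT, 70.8% ± 2.41 in Trex1-/-, 65.8% ± 5.00 with H151 and 70.6% ± 1.79 with SN-011.

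The gap between Ifitm3 and Ifitm2 depended on the exon length. Of the 655 exonic bases of Ifitm2, 268 also belong to the annotated gene Gm45717, which had 0 counts in all libraries, and reads there may not have been assigned. Over the 387 bases that are its own, Ifitm2 reached 539 CPM per kb in WT, close to the 549 of Ifitm3, and 592 in Trex1-/-, and it stayed below Ifitm3 in each of the 8 libraries. On this length the share of Ifitm3 was 48.9% ± 0.37 in WT, where Ifitm2 had 48.1% ± 0.18, and 59.9% ± 2.77 in Trex1-/-, 54.2% ± 5.58 with H151 and 59.6% ± 2.15 with SN-011. Sequence sharing adds to this uncertainty, since 48.5% of the 50-base stretches of Ifitm2 (22.8% when Gm45717 is left out) and 10.0% of those of Ifitm3 also occurred in another gene or pseudogene, against 5.02% for Ifitm1 and 0% for Ifitm6. The transcripts of Ifitm2 and Ifitm3 were 83.3% identical over 365 aligned positions.

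Within a library, the ratio of counts between 2 members does not depend on the scaling. Ifitm3 had 1.79 and 1.78 counts per Ifitm2 count in WT, and 2.57 and 3.02 in Trex1-/-. It had 1.86 and 2.57 with H151, and 2.58 and 2.94 with SN-011. In this ratio the SN-011 libraries stayed in the range of the untreated Trex1-/- libraries. H151 replicate 1 came near WT and H151 replicate 2 lay just below the lower Trex1-/- library. A ratio does not show a change that both genes share. With SN-011, Ifitm3 and Ifitm2 both had lower means than in untreated Trex1-/- cells (log2 -0.29 and -0.27). For Ifitm6 per Ifitm1 the ratios were 0.39 and 0.49 in WT, 0.88 and 0.81 in Trex1-/-, 0.55 and 0.72 with H151, and 0.67 and 0.78 with SN-011. Both WT libraries were below all 6 others in both ratios.

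**Figure D3:**
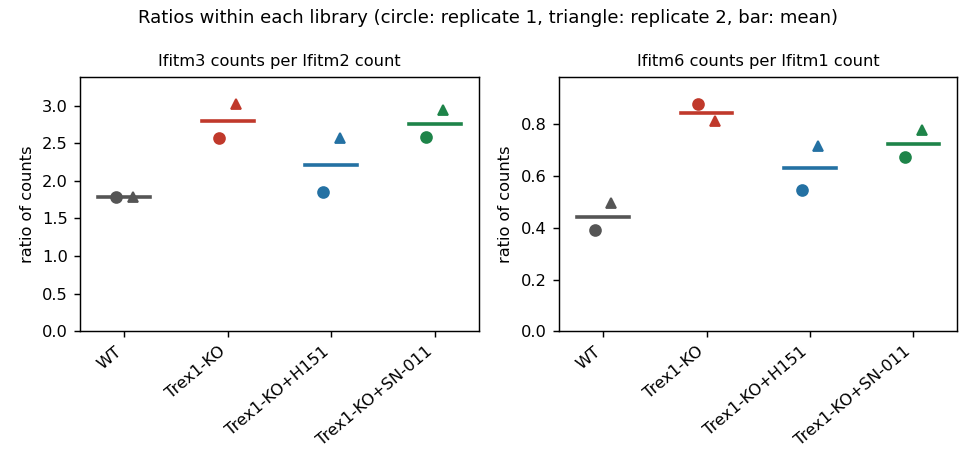
Ratio of raw counts within each library (vertical axes starting at 0) for Ifitm3 per Ifitm2 and Ifitm6 per Ifitm1 in the 4 groups. Circles are replicate 1, triangles replicate 2 and bars the mean. WT lies lowest in both ratios (1.78 and 1.79, 0.39 and 0.49), and H151 replicate 1 is the lowest Trex1-/- library (1.86 and 0.55).

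No tested gene around the cluster was called. Within 100 kb of the cluster 20 other genes are annotated, of which 8 were tested, and edgeR called 0 of 8 in Trex1-/- against WT or with either antagonist, with 0 at an unadjusted p below 0.05. Ifitm5, a family member of bone that lies near Ifitm2, had 5 to 14 counts per library (log2 0.29 ± 0.57, edgeR adjusted p = 0.795). Sigirr, which encodes an inhibitory receptor of the interleukin-1 receptor family, had 23 to 52 counts per library (log2 0.67 ± 0.32, edgeR adjusted p = 0.202), so for these sparse genes the precision was low. Elsewhere in the genome, Ifitm7 had 0 to 3 and Ifitm10 1 to 12 counts per library and were not tested. In the list of 11 IFITM and CD225 relatives beyond the 4 members, 3 were tested and edgeR called 0 in Trex1-/- against WT, with 0 at an unadjusted p below 0.05.

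**Figure D4:**
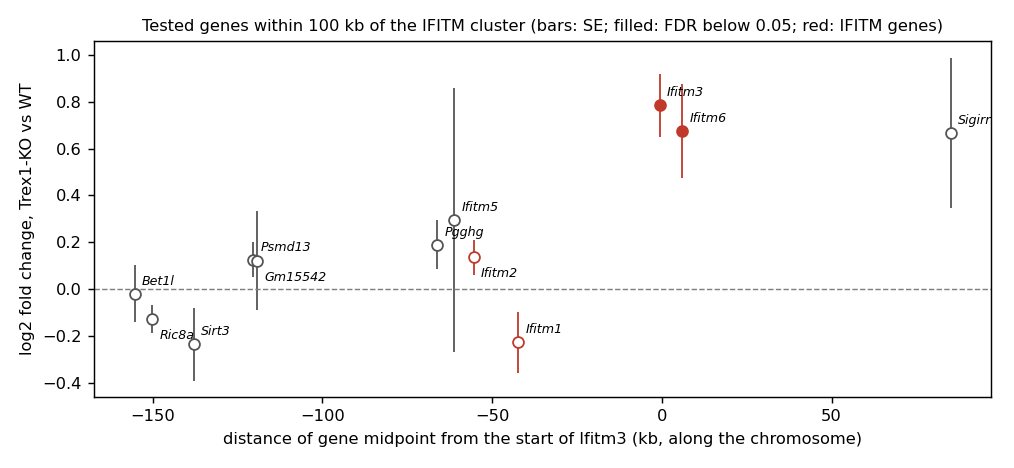
Log2 fold change in Trex1-/- against WT (vertical axis, bars are SE) of the tested genes within 100 kb of the cluster, by the distance of each gene's midpoint from the start of Ifitm3 (kb). Red points are the 4 IFITM genes, and filled points had an adjusted p below 0.05. Only Ifitm3 and Ifitm6 are filled, and Sigirr (0.67 ± 0.32) is open.

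Proteins that modify or cooperate with IFITMs include the palmitoyltransferases of the ZDHHC family, the E3 ubiquitin ligase NEDD4 and the protease ZMPSTE24. Of the 13 such genes listed, all tested, 0 rose and 1 fell in Trex1-/-, beside 9.27% and 7.11% of all tested genes. The gene that fell was Nedd4, with 235 and 212 CPM in WT and 84.4 and 74.7 CPM in Trex1-/- (log2 -1.49 ± 0.11, edgeR adjusted p = 3.42e-07). The H151 libraries had 111 and 90.6 CPM and the SN-011 libraries 93.3 and 76.7 CPM, and neither antagonist changed it past the threshold (edgeR adjusted p = 0.209 and 0.768).

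Other factors that act on viral membranes or entry offered a comparison with the family. Of 10 such genes, all tested, 5 rose and 0 fell in Trex1-/-, H151 lowered 2 and SN-011 lowered 3. The shares over all tested genes were 9.27% and 7.11% in Trex1-/-, 1.84% lower with H151 and 2.22% lower with SN-011. Rsad2, which encodes the radical-SAM enzyme viperin, rose from 101 and 68.1 CPM to 407 and 385 CPM (log2 2.23 ± 0.17, edgeR adjusted p = 5.46e-07). With H151 it fell to 108 and 154 CPM, and to 139 and 166 CPM with SN-011 (log2 -1.59 ± 0.16 and -1.38 ± 0.16, edgeR adjusted p = 6.31e-05 and 0.000235).

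Ly6e, which encodes a lipid-anchored protein that restricts coronavirus fusion, rose from 438 and 383 CPM to 1658 and 1480 CPM (log2 1.93 ± 0.07, edgeR adjusted p = 8.33e-10). It stayed at 1311 and 1318 CPM with H151 (log2 -0.26 ± 0.07, edgeR adjusted p = 0.0894) and fell to 1096 and 1142 CPM with SN-011 (log2 -0.49 ± 0.07, edgeR adjusted p = 0.000959). Cd74, the invariant chain of MHC class II, rose from 69.7 to 202 CPM on average (log2 1.54 ± 0.07, edgeR adjusted p = 8.33e-09), and it averaged 202 CPM in the H151 group and 145 CPM in the SN-011 group. With either antagonist the mean of Rsad2 thus lay closer to WT than to untreated Trex1-/-, and that of Ly6e closer to untreated Trex1-/-.

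**Figure D5:**
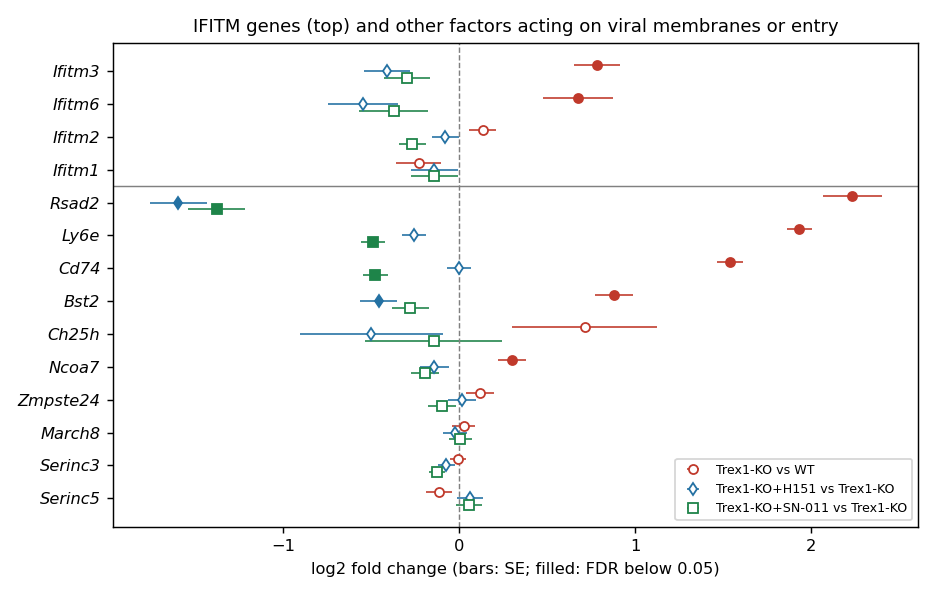
Log2 fold changes (horizontal axis, bars are SE) of the 4 IFITM genes, above the line, and 10 other factors acting on viral membranes or entry, below it. Red circles show Trex1-/- against WT, blue diamonds H151 and green squares SN-011 against Trex1-/-, and filled symbols had an adjusted p below 0.05. Rsad2 moves most in each comparison (2.23, -1.59 and -1.38).

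Over the 8 libraries, the gene whose log2 CPM was most like that of Ifitm3 was Bst2, which encodes tetherin, a protein that holds budding virions at the cell surface (Pearson r = 0.98 over 8 libraries). Bst2 gave 205 and 200 CPM in WT, 347 and 399 CPM in Trex1-/-, 233 and 311 CPM with H151, and 306 and 310 CPM with SN-011. Like Ifitm3, it was low in H151 replicate 1 and near the lower Trex1-/- library in H151 replicate 2. It rose in Trex1-/- (log2 0.88 ± 0.11, edgeR adjusted p = 5.03e-05) and, unlike Ifitm3, passed the test with H151 (log2 -0.46 ± 0.11, edgeR adjusted p = 0.0394). The difference between these 2 genes was not tested. Selenot, Dnajc14, Npc2 and Taf11 followed, with r from 0.97 to 0.98.

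The genes most like Ifitm6 were Rnf135 (r = 0.97), a ubiquitin ligase of the RIG-I pathway, then Gm36371, Plcl1, Hbp1 and Repin1. For Ifitm2 they were Lrp11, A730017L22Rik, Gm10335, Lipc and Mapre1, with r from 0.94 to 0.97. For Ifitm1 they were Tmtc2, Pcdh18, Nt5dc1, Nxpe4 and Lyplal1, with r from 0.93 to 0.95. Among the members, Ifitm3 and Ifitm6 had the highest correlation (r = 0.83) and Ifitm1 and Ifitm3 the lowest (r = -0.30). All of these are taken over the same 8 libraries in 4 groups and describe shared group patterns.

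The interferon system was measured in the same fit. Of 17 genes of type I interferon signalling, 15 were tested, 9 rose and 0 fell in Trex1-/-, and each antagonist lowered 6. Over all tested genes, 9.27% rose and 7.11% fell in Trex1-/-, H151 lowered 1.84% and SN-011 lowered 2.22%. Irf7, the transcription factor that amplifies interferon production, rose from 83.6 and 66.9 CPM to 479 and 445 CPM (log2 2.62 ± 0.12, edgeR adjusted p = 7.16e-09). With H151 it fell to 211 and 274 CPM, and to 256 and 293 CPM with SN-011. Usp18, which encodes a brake on the interferon receptor, and Stat2 rose by 2.63 ± 0.16 and 1.57 ± 0.07 on the log2 scale (edgeR adjusted p = 5.72e-08 and 3.24e-09).

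As for Ifitm3, H151 replicate 1 was the lower H151 library for Rsad2, Irf7 and Usp18 (31.4 and 48.2 CPM for Usp18), while Stat2 was at 159 and 166 CPM. Ifnb1, encoding interferon beta, had 0 to 2 counts per library and was not tested. Of 8 cGAS-STING genes, 7 were tested and 3 rose in Trex1-/-, namely Cgas (log2 0.75 ± 0.15), the kinase gene Ikbke (0.41 ± 0.07) and Trim56 (0.41 ± 0.07), with edgeR adjusted p-values of 0.00358, 0.000848 and 0.00119. H151 lowered 2 of them and SN-011 1.

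Markers of other cell types also moved with the genotype, in a comparison where 9.27% of all tested genes rose and 7.11% fell. In bulk RNA, fewer cells of a type and less RNA per cell cannot be told apart. Of 12 neutrophil and granulocyte precursor markers, 8 were tested and 7 rose in Trex1-/-, with a summed level of 260 to 287 CPM in WT and 390 to 438 CPM over the 3 Trex1-/- groups. Csf3r made up most of this sum (263 CPM on average in WT and 342 in Trex1-/-, log2 0.38 ± 0.07), while Ngp, Ltf and Camp, which encode granule proteins, rose by 3.54 ± 0.20, 3.40 ± 0.32 and 3.71 ± 0.58 on the log2 scale (edgeR adjusted p = 4.64e-08, 4.57e-06 and 0.000491). Ly6g (0 to 3 counts per library), Elane (0 to 7), Cxcr2 (0 to 8) and Mpo (0 to 11) were at or near 0, and with either antagonist edgeR called 0 of the 8, with 0 at an unadjusted p below 0.05. Of 7 inflammatory monocyte markers, 4 rose and 1 fell, with a summed level of 411 to 421 CPM in WT and 229 to 278 CPM in the Trex1-/- groups, most of it F13a1, the marker that fell. Among those that rose, Plac8 went from 1.92 to 10.5 CPM on average (log2 2.43 ± 0.23, edgeR adjusted p = 5.15e-06). With an antagonist 0 of these 7 were called, with 3 at an unadjusted p below 0.05 for H151 and 0 for SN-011. The part of these cells in the Ifitm6 result was not tested.

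Stromal markers went the other way. Of 11 genes 10 were tested and 9 fell in Trex1-/-, with a summed level of 3046 to 3366 CPM in WT and 1241 to 1742 CPM over the 3 Trex1-/- groups. Cxcl12, a chemokine of marrow stroma, fell most among them (log2 -1.77 ± 0.14, edgeR adjusted p = 6.88e-07). Their part in the lower Ifitm1 and Nedd4 values of the Trex1-/- groups was not tested. Of 6 dendritic cell markers and 6 erythroid and megakaryocyte markers, 3 each were tested and 1 each rose. Of 7 lymphocyte markers 0 passed the filter on low counts.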

How the data were processed

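Gene counts of 8 RNA-Seq libraries (4 groups of 2) were taken as the authors deposited them: raw counts of read pairs per Ensembl gene, not normalised. The study's methods name Trimmomatic, hisat2 and featureCounts, whereas the submitters' processing notes list HISAT2, HTSeq and mm10; the strand setting of the counting is not given in the sources used here. Counts were filtered with filterByExpr (minimum count 10, total 15), scaled by TMM and fitted in 1 quasi-likelihood model over the 4 groups with edgeR 4.0.16 (R 4.3.3), with Benjamini-Hochberg adjustment over 14591 genes and a threshold of 0.05. CPM used the library sizes of that fit, and 3 counts correspond to 0.175 to 0.255 CPM. Intervals cover 95%. Alternatives were DESeq2 1.42.0 (own test, and its size factors in edgeR), total-count scaling, a filter at 1 count, edgeR's exact test, fits of 2 groups, a replicate block and leaving out each library. The procedure was tested on simulated data. Replicates differed beyond sampling noise in every group. Gene models came from GENCODE mouse release 21 and promoters from RefSeq (GRCm38.p6). The genes named were the members, genes within 100 kb, up to 3 called genes per list with the largest change in Trex1-/- against WT (average log2 CPM of at least 0), and the 5 genes with the highest Pearson correlation to each member. Ifitm7, Ifitm10, Ifnb1, F13a1, Csf3r, Lyz2 and the markers at or near 0 were added after their values were seen. The members and lists were chosen with earlier results of these data known.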

Additional observations from a re-analysis of the deposited data

How the results depend on the processing

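Ifitm3 in Trex1-/- against WT kept its call under all alternatives. The number of members called there was 1 with total-count scaling and 1 to 2 when single libraries were left out. With a filter at 1 count, 2 members were called with H151 (Ifitm3 at an edgeR adjusted p of 1.27e-10 and Ifitm6 at 0.0244), 2 with SN-011 (Ifitm2 at 0.00455 and Ifitm3 at 2.17e-05), 2 with H151 against WT and 2 with SN-011 against WT. The cause was not tested. Fits of 2 groups called 1 member with SN-011 (Ifitm3, adjusted p = 0.0458) and 2 with SN-011 against WT. Total-count scaling called 1 with H151 against WT and 2 with SN-011 against WT, and DESeq2 called 0 in the latter. Leaving out single libraries gave 0 to 1 called members in each comparison other than Trex1-/- against WT. Libraries left alone in a group were then assumed to vary like the others.

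Library titles repeat the replicate numbers across groups, but the labels do not say what a number stands for. The numbers were therefore not taken as pairs. The deviations from the group means correlated at 0.19 between Trex1-/- and H151, but between -0.02 and 0.06 in the other group pairs. A replicate block called 1 member with H151 (Ifitm3, log2 -0.42, edgeR adjusted p = 0.0279), called 1 with H151 against WT (Ifitm3, log2 0.36, adjusted p = 0.0229) and changed no other member's call.

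Directions turned for small differences. These were Ifitm1 in SN-011 against H151 with DESeq2 (-0.000951, main value 0.00134), and Ifitm2 in H151 against WT with total counts (-0.00282). Without single libraries the SN-011 minus H151 difference ran from -0.10 to 0.083 for Ifitm1, from -0.14 to 0.42 for Ifitm3 and from -0.034 to 0.44 for Ifitm6. Against WT, Ifitm6 ran from -0.17 to 0.53 with H151 and from -0.000824 to 0.71 with SN-011.

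Over all genes, total-count scaling turned the split in Trex1-/- against WT from 1352 higher and 1038 lower to 946 and 1598, in H151 against WT from 990 and 736 to 715 and 998, and in SN-011 against WT from 902 and 812 to 703 and 1042. The filter at 1 count gave 525 calls for H151 (325 as reported), 679 for SN-011 (340) and 266 between the antagonists (23), where DESeq2 gave 38, the exact test 84 and the block 44. Of the single libraries, leaving out WT replicate 1 gave 1588 calls in Trex1-/- against WT (2390), 986 in H151 against WT (1726) and 975 in SN-011 against WT (1714), WT replicate 2 gave 1112 in H151 against WT, Trex1-/- replicate 1 gave 197 with SN-011, SN-011 replicates 1 and 2 gave 121 and 174 with SN-011, 1052 and 906 in SN-011 against WT and 2 and 11 between the antagonists, and H151 replicate 2 gave 270 between the antagonists.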
